A study of Mus musculus with 10 samples.

Results

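Gene expression in the colorectum of mice with colitis from dextran sodium sulfate (DSS), all injected with a control miRNA, was compared between day 2 and day 4 of the DSS course. DSS is a sulfated polysaccharide that injures the colon epithelium when given to mice. The comparison set the 2 libraries titled NC-miR_4d against the 2 titled NC-miR_2d, and covered every feature above the detection floor in both libraries of either group, 12668 of 23284. All mice were BALB/c, 7 weeks old. Both NC-miR groups were given 2% DSS and received the negative control (NC-miR), carried by super carbonate apatite (sCA), a carrier of nucleic acids, into the tail vein on days 1, 2 and 3. The label of the day 2 group gives the same 3 injection days although the tissue was taken on day 2, and the day of each NC-miR library rests on its title. Untreated normal mice (2 libraries, no DSS, no injection) set the zero of the values, and mice given DSS with miR-29a or miR-29b and taken on day 4 (2 libraries each) entered the estimate of the spread. The labels do not say whether a library is 1 animal or a pool, so all p-values measure the spread between these libraries only. Both groups had DSS, the carrier and a miRNA, so the effects of these cannot be told apart. Tissue taken on day 2 cannot have had the injection of day 3. The number of injections and the time since the last may therefore differ between the groups, and cannot be told apart from the day.

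The values used were on a log2 scale and relative to a per-gene baseline. Each library value below is the log2 value minus the mean of the 2 normal libraries, and each difference is day 4 minus day 2 on the log2 scale with its standard error (SE, n = 2 libraries per group). Above or below normal refers to that mean. No counts were used here, so depth is unknown, and the libraries held 12680 to 12940 features above the floor. Of the 12668 genes compared, 12263 were above the floor in all 4 NC-miR libraries, 264 were at the floor in 1 or both day 4 libraries and 141 in 1 or both day 2 libraries. The root mean square difference over the 12263 genes was 0.383 between the day 2 libraries and 0.391 between the day 4 libraries. Across days it ran from 0.344 (day 2 replicate 2 against day 4 replicate 1) to 0.451 (day 2 replicate 1 against day 4 replicate 1). The closest pair of libraries was therefore one from each day, and the days did not separate over all genes. Because the values are relative, the tissue label could be set only against the normal colorectum of the series. Epcam (epithelial adhesion molecule) had values of -0.01, 0.04, 0.05 and -0.02 in day 2 replicates 1 and 2 and day 4 replicates 1 and 2, and Vil1 and Krt20 lay between 0.11 and 0.50 in the 4 libraries.

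Interferons are secreted proteins made by cells that sense foreign nucleic acid or microbial products. Type I interferons act through transcription factors that bind an interferon-stimulated response element in the promoters of antiviral genes. Interferon-gamma, made by T and natural killer cells, raises guanylate-binding proteins, immunity-related GTPases and the antigen presentation genes. In the colon both responses accompany infection and epithelial injury, and their genes lead the differences described below.

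The core of this response element was searched as GAAA, any 2 bases and GAAA again, on both strands (TTTC in place of GAAA on the other), with overlapping matches allowed. It was found in 1131 of 32851 RefSeq promoters (3.44%), each from 250 bases before to 50 after the start of a gene on GRCm38.p6 (mm10). The 5 windows printed here, 5′ to 3′ on the strand of the gene, lie upstream of interferon-induced genes whose values follow. They were chosen because they hold the core, which is in capitals, with overlapping matches joined.
Bst2, chr8:71537573-71537622, minus strand: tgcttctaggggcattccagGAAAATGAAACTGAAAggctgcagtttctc
Isg15, chr4:156200867-156200916, minus strand: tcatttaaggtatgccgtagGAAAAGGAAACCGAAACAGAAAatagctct
Ifit1, chr19:34640765-34640814, plus strand: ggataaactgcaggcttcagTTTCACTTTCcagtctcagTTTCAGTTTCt
Igtp, chr11:58199502-58199551, plus strand: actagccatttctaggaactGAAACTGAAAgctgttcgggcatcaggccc
Cxcl10, chr5:92349073-92349122, minus strand: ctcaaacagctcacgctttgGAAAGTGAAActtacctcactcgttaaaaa
A promoter was held for 34 of 48 type I interferon genes and 16 of 26 interferon-gamma genes described below. That is 70.8% and 61.5% of these lists, under the 80% needed, so a comparison of the motif between the lists and other genes was void. A match is a run of letters, not a measured binding site.

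Over all 12668 genes the differences centred near 0, with a median of 0.02 and quartiles of -0.14 and 0.16. limma called 2 features (0.0158%) at an adjusted p under 0.05, 1 higher on day 4 (0.00789%) and 1 lower (0.00789%), and both were small RNA features described near the end. None of the 12263 genes above the floor in all 4 libraries was called by limma, and the smallest adjusted p among them was 0.277. A fit to these genes alone also called 0, with 490 lower and 281 higher at an unadjusted p under 0.05. At an unadjusted p under 0.05 there were 837 genes (6.61%), 533 lower on day 4 (4.21%) and 304 higher (2.40%). The larger differences lay on the lower side. A difference of 1 or more with groups that did not overlap was seen in 136 genes lower on day 4 (1.07%) and 20 higher (0.158%). Some of these were at the floor throughout 1 day and were compared only through the other, which fixed their direction. Among genes above the floor in all 4 NC-miR libraries, 128 were lower and 13 higher by 1 or more, with overlapping groups included. Of the 136 genes, 53 belonged to 4 lists of interferon and antigen presentation genes that together held 118 of the genes compared. These 4 were the type I, interferon-gamma, class I antigen presentation and nucleic acid sensing lists, and class II was not among them. Groups that did not overlap at all were common, in 4654 genes (36.7%), with 2099 lower (16.6%) and 2555 higher (20.2%), and these shares are the background for the counts of separated groups below. With the libraries centred on their medians the balance reversed, to 2388 lower and 2195 higher. The direction of this background therefore depended on how the libraries were scaled.

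The antiviral genes of the type I response had lower values on day 4 than on day 2. Of 48 listed genes, 48 had a difference below 0 (45.5% of all genes did), and in 43 (89.6%) both day 4 libraries lay below both day 2 libraries. The median difference was -1.13 (0.02 over all genes), 41 had an unadjusted p under 0.05, and 0 passed limma over all genes. The list's median value was 3.05 and 2.05 in day 2 replicates 1 and 2, and 1.5 and 0.94 in day 4 replicates 1 and 2. All 48 genes were higher in replicate 1 than in replicate 2 on day 2, and all 48 again on day 4, so the libraries of a day differed as a block. On day 4 the response had not reached the normal level, since 44 of the 48 genes were above the normal mean in both day 4 libraries. The day 4 libraries of mice given miR-29a (list medians 0.58 and 0.71) or miR-29b (0.74 and 1.06) were also above normal. In bulk tissue, fewer responding cells and less RNA per cell cannot be told apart.

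Bst2 (chromosome 8, 71534255 to 71537472), the membrane protein tetherin that holds budding virus on the cell, had the smallest p of the genes above the floor throughout. Its values were 3.02 and 2.60 on day 2 and 1.14 and 0.78 on day 4, so the days were far apart relative to the gap within each day. The difference was -1.85 ± 0.25 (3.6-fold lower, limma adjusted p = 0.277), and -2.06 to -1.64 with 1 NC-miR library left out. Ifitm3, which blocks entry of virus from endosomes, showed the same order, with 2.11 and 1.56 on day 2 and 0.76 and 0.36 on day 4 (-1.27 ± 0.23, adjusted p = 0.383). Isg15 (chromosome 4, 156199424 to 156200818), a ubiquitin-like protein joined to other proteins, had values of 5.59 and 4.61 on day 2 and 3.45 and 2.73 on day 4. It was 4.03-fold lower (-2.01 ± 0.45, adjusted p = 0.483) and remained the furthest above normal of these 3 genes on both days. Xaf1, a proapoptotic interferon target, differed by -1.48 ± 0.31 from day 2 values of 3.98 and 3.10.

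The largest differences of the type I genes carried wide errors. Ifit3, an antiviral RNA-binding partner of Ifit1, had values of 7.06 and 4.13 on day 2 and 2.91 and 2.43 on day 4 (-2.93 ± 0.79, adjusted p = 0.533). A near-identical neighbour, Ifit3b, shares its sequence, so the assignment of its reads is uncertain. Mx2, of a family of dynamin-like GTPases against viruses, is annotated as a transcribed pseudogene. It was at 5.35 and 2.54 on day 2 and at 1.68 and 0.56 on day 4 (-2.83 ± 0.77). In both Ifit3 and Mx2 day 2 replicate 1 stood far above replicate 2, a wider gap than that between day 2 replicate 2 and either day 4 library. The same held for Rsad2 (viperin, which makes an antiviral nucleotide; 5.24 and 2.76, then 1.89 and 0.90). Its neighbour Cmpk2 (4.80 and 2.60, then 1.60 and 1.13) followed the same order, as did Ifit2 (4.72 and 1.82, then 1.35 and 0.62). Usp18, which removes Isg15 from proteins and damps the receptor, was at 5.67 and 3.52 on day 2 and 2.55 and 1.88 on day 4 (-2.38 ± 0.62). Slfn1, a schlafen gene outside the list, was at 3.73 and 1.49 and then at 0.37 and -0.12 (-2.49 ± 0.69). Ifit1 (6.83 and 4.82, then 4.01 and 3.36) and Irf7, the regulator that amplifies type I interferon (3.21 and 2.72, then 2.22 and 1.55), differed by -2.14 ± 0.62 and -1.08 ± 0.29. The 5 genes with overlapping groups were Oas2, Oas3, Mx1, Phf11 and Isg20. In Oas2, a sensor of double-stranded RNA, day 4 replicate 1 (3.43) was above day 2 replicate 2 (2.82).

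**Figure D1:**
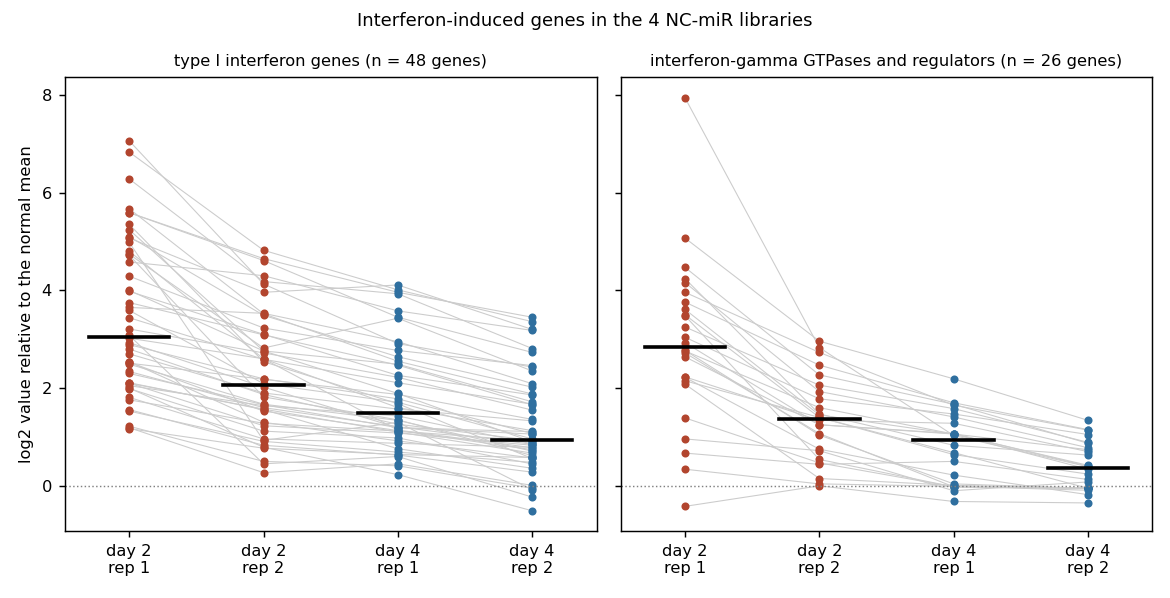
Log2 value relative to the normal mean (vertical axis) of each type I interferon gene (left, 48 genes) and each interferon-gamma GTPase or regulator (right, 26 genes) in the 4 NC-miR libraries (horizontal axis). Points are genes, grey lines join a gene across libraries and black bars are medians. The medians are 3.05 and 2.05 on day 2 and 1.5 and 0.94 on day 4 on the left, and 2.85 and 1.37 and then 0.93 and 0.37 on the right, and the 2 libraries of a day differ from each other as well as from the other day.

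Genes raised by interferon-gamma were lower on day 4 too. All 26 were below 0, 24 had groups that did not overlap (92.3%), and 23 had an unadjusted p under 0.05 (0 passed limma over all genes). Their median difference was -1.44, from medians of 2.85 and 1.37 on day 2 and 0.93 and 0.37 on day 4. Of the 26, 20 were above the floor in all 4 NC-miR libraries, with 18 separated and a median of -1.38. The rest were at the floor in 1 or both day 4 libraries. They were compared through day 2 alone, which favoured a lower value on day 4. The guanylate-binding protein Gbp3, which attacks membranes around microbes, was at 3.96 and 2.73 on day 2 and 1.65 and 1.14 on day 4 (-1.95 ± 0.37, limma adjusted p = 0.39). Igtp, an immunity-related GTPase, was at 3.76 and 2.47 and then at 1.70 and 1.15 (-1.69 ± 0.37, adjusted p = 0.483). Ubd, a ubiquitin-like protein that sends proteins to the proteasome, was close to normal on day 4 (0.96 and 0.72, then -0.10 and 0.08; -0.85 ± 0.14, adjusted p = 0.344). The brake on cytokine signalling Socs1 (2.22 and 0.75, then 0.22 and -0.18) was also near normal on day 4. Irf1 and Irf8, transcription factors of this response, had the differences nearest 0 of the genes named here. Irf1 differed by -0.24 ± 0.15, and Irf8 by -0.13 ± 0.18 with overlapping groups.

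The chemokines of this list attract T cells through CXCR3. Cxcl10 (chromosome 5, 92346638 to 92348889) was at 7.94 in day 2 replicate 1 and 2.83 in replicate 2, and at 1.03 and 0.39 on day 4. Its difference of -4.67 ± 1.30 (limma adjusted p = 0.535) spanned -7.23 to -2.12 with 1 NC-miR library left out, so 1 library set much of its size. Cxcl9 (2.72 and 1.07 on day 2) was not above the floor in either day 4 library and was at least 3.86-fold lower. Cxcl11 (3.48 and 0.54 on day 2) was also at the floor on day 4, at least 4.18-fold lower. These floor bounds do not say how much lower the 2 genes were.

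Many of these genes lie in clusters, and most members of each cluster were lower on day 4. On chromosome 3 (142496934 to 142638008) Gbp5, Gbp7, Gbp3 and Gbp2 were 4 of 4 with separated groups and a median of -1.55. The second Gbp cluster, on chromosome 5 (105012513 to 105346476), had 5 of 6 separated and a median of -1.28, with Gbp8 as the exception (0.67 and 0.44, then 0.50 and 0.13). On chromosome 11 (48865245 to 49096987) Irgm1, Tgtp1, Tgtp2 and Ifi47 were 4 of 4 separated with a median of -1.87. The Oas cluster (chromosome 5, 120730333 to 120907544) had 3 of 5 separated and a median of -0.89. Some members of such clusters are near copies of each other, so reads may have been split between these. Members of a cluster cannot be taken as independent.

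Antigen presentation genes of class I were mostly lower on day 4 as well, with a median nearer 0 than that of the GTPases. Of 26 genes, 24 were below 0, 18 had day 4 below day 2 without overlap (69.2%), 1 the reverse, and 9 had an unadjusted p under 0.05. The median was -0.39. Tap1 (chromosome 17, 34187556 to 34197225), a subunit of the pump that carries peptides to class I molecules, was at 1.96 and 1.47 on day 2 and 0.55 and 0.23 on day 4 (2.5-fold lower, -1.32 ± 0.20, limma adjusted p = 0.343). H2-T24, a nonclassical class I gene, was at 4.15 and 3.22 and then at 1.82 and 1.66 (-1.94 ± 0.33, adjusted p = 0.344). Psmb9, an immunoproteasome subunit (1.19 and 0.94, then 0.50 and 0.08), and H2-T23 (1.58 and 1.36, then 0.81 and 0.41) were lower by smaller amounts. H2-Q1 (0.21 ± 0.15) and the peptide trimming gene Erap1 (0.01 ± 0.16) were the 2 members not below 0. In class II, 10 of 11 genes were below 0 with a median of -0.35 (-0.51 without day 2 replicate 1 and -0.19 without day 2 replicate 2). H2-Aa (-0.29 and 0.03 on day 2, -0.44 and -0.85 on day 4; -0.52 ± 0.21) was below normal on day 4, unlike the class I genes named.

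Sensors of nucleic acid had a median between those of the interferon-gamma and class I lists. Of 24 genes, 22 were below 0, 9 were separated (37.5%) and 10 had an unadjusted p under 0.05. The median was -0.53 (-0.90 to -0.12 with 1 NC-miR library left out), and -0.50 in the 21 genes above the floor in all 4 libraries. This list is not separate from the type I list, since Ddx58, Ifih1, Dhx58, Zbp1, Trex1 and Eif2ak2 are in both. Zbp1, a sensor of Z-form nucleic acid that can start cell death, was at 3.75 and 3.09 on day 2 and 2.47 and 1.66 on day 4 (-1.36 ± 0.35). The DNA exonuclease Trex1 (2.00 and 0.79, then 0.23 and -0.51) and the nucleotide hydrolase Samhd1 (0.64 and 0.61, then 0.10 and -0.06) were at or below normal in day 4 replicate 2. Pyhin1, a DNA-binding protein raised by interferon (2.91 and 1.04 on day 2), was at the floor on day 4, at least 4.08-fold lower. Its direction was fixed, since it was compared through day 2 alone. The ligand genes were not measurable, and the receptor and signalling genes did not lean one way. The interferon genes Ifna1, Ifna2, Ifna4, Ifnb1, Ifnk, Ifng, Il28a and Il28b were listed at the floor in all 4 NC-miR libraries. Of the 9 receptor and signalling genes compared, 4 were below 0 and 5 above, with a median of 0.02. Ifnar2 (0.39 and 0.50, then 0.27 and 0.13; -0.24 ± 0.20) and Ifngr1 (-0.15 ± 0.15), subunits of the type I and gamma receptors, did not reach an unadjusted p of 0.05, nor did the kinase gene Jak2 (0.21 ± 0.14).

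The size of the interferon differences depended on 1 day 2 library. Without NC-miR day 2 replicate 1 the median was -0.69 for type I genes and -0.73 for interferon-gamma genes, with 21 and 16 members at an unadjusted p under 0.05. Without day 2 replicate 2 the medians were -1.63 and -2.19, and limma called 90 features, 88 of them lower on day 4. Of these 88, 45 were in the 4 interferon and antigen presentation lists, 20 of them type I genes. Without day 4 replicate 1 the medians were -1.42 and -1.72, and without day 4 replicate 2 they were -0.90 and -1.20, with 5 features called (1 lower, 4 higher). Groups were separated in 43 of 48 type I and 24 of 26 interferon-gamma genes, so neither median could change direction in these 4 fits. The count of calls did change.

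**Figure D2:**
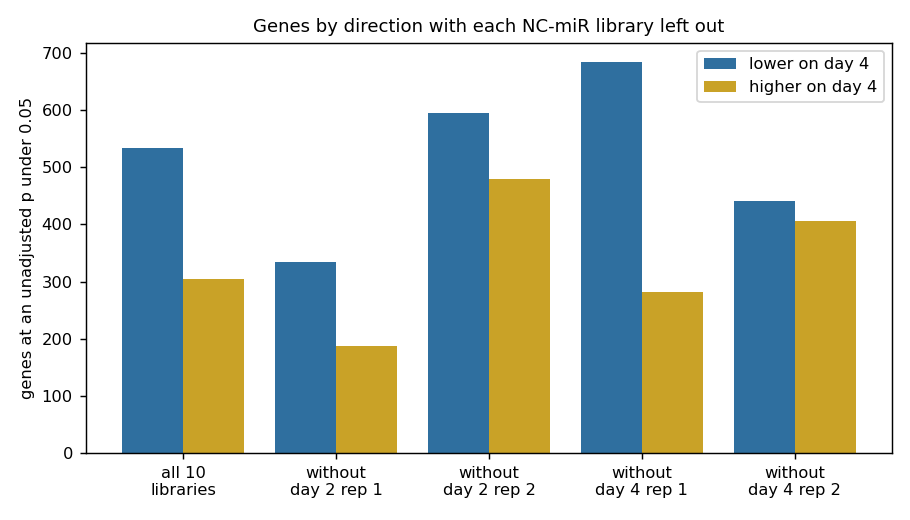
Number of genes at an unadjusted p under 0.05 by limma (vertical axis) that were lower (blue) or higher (yellow) on day 4, with all 10 libraries and with each NC-miR library left out (horizontal axis). The count of lower genes was 533 with all libraries and ranged from 334 without day 2 replicate 1 to 683 without day 4 replicate 1.

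Inflammatory genes outside the interferon response were mostly not measurable. Of 29 cytokine and chemokine genes, 18 were not above the floor in both libraries of either day, among them Il6 (at the floor in 4 of 4 NC-miR libraries), Tnf (3 of 4) and Cxcl1 (2 of 4). Of the 11 compared, 8 were below 0, 2 had an unadjusted p under 0.05, and the median was -0.18. In the 10 genes above the floor in all 4 NC-miR libraries the median was -0.17. Ccl22, a chemokine for regulatory T cells, was at 0.98 and 1.15 on day 2 and at the floor in both day 4 libraries, at least 2.17-fold lower (limma adjusted p = 0.388). Ccl22 was 1 of the 2 genes at an unadjusted p under 0.05. It was compared through day 2 alone, which fixed its direction. Ccl20, which attracts CCR6 cells to the epithelium, was at -0.06 and -0.16 and then at -1.06 and -0.78 (-0.81 ± 0.21, adjusted p = 0.496). The monocyte attractant Ccl8 (2.11 and 1.76, then 1.64 and 0.96; -0.64 ± 0.31) stayed above normal. Il1b (-0.01 and 0.55, then 0.05 and -0.70) had overlapping groups.

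Lcn2 and the calprotectin genes were highest in day 2 replicate 1. Lcn2, which binds bacterial siderophores, was at 4.58 and 1.78 on day 2 and 1.17 and 0.19 on day 4 (-2.50 ± 0.82, limma adjusted p = 0.68). S100a9, a subunit of calprotectin, was at 3.71 and 1.28 and then at 0.03 and 1.21 (-1.87 ± 0.72), and its partner S100a8 (4.93 and 1.30, then 1.37 and 1.65) had overlapping groups. Of 5 neutrophil genes compared, 1 was separated, and the neutrophil markers Csf3r and Cxcr2 were at the floor in all 4 libraries. Saa1, an acute phase protein also made by gut epithelium, went the other way (0.12 and 0.36, then 0.67 and 0.84; 0.52 ± 0.14, adjusted p = 0.533). Of 24 macrophage and monocyte genes, 18 were below 0, 9 were separated below (37.5%) and 3 above (12.5%). Of the 24, 6 had an unadjusted p under 0.05, the median was -0.25 and the highest difference was 0.64. Pilra, an inhibitory receptor of myeloid cells, was at 0.36 and 0.51 on day 2 and -0.36 and -0.52 on day 4 (-0.88 ± 0.13, adjusted p = 0.289). The monocyte genes Aif1 (0.70 and 0.65, then 0.13 and 0.09), Ly6c1 (1.47 and 1.07, then 0.76 and 0.14) and Fcgr4 (2.10 and 1.32, then 1.03 and 0.46) had separated groups. Of the defining macrophage genes, Csf1r (0.13 and 0.18, then 0.40 and -0.17) and Emr1 (0.28 and 0.29, then 0.29 and -0.02) had overlapping groups. The complement gene C1qa was separated below (0.59 and 0.37, then 0.21 and -0.24; -0.50 ± 0.22). The part of cell number in the interferon differences was not tested.

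Liver X receptors (LXR) are nuclear receptors for oxidised sterols that raise genes for cholesterol export. Of 16 genes of this group, 11 were below 0, 6 were separated below (37.5%) and 4 had an unadjusted p under 0.05, with a median of -0.09. That median was -0.27 without day 2 replicate 1 and -0.01 without day 4 replicate 2. The cholesterol exporter Abcg1 (chromosome 17, 31057694 to 31117984) was at 0.18 and 0.23 on day 2 and at -1.22 and -0.78 on day 4 (-1.21 ± 0.17, limma adjusted p = 0.289). It was at the floor in 1 day 4 library, so this difference may be understated. Abcg1 was therefore compared through day 2 alone, which favoured a lower value on day 4. The exporter Abca1 was at 0.05 and 0.06 and then at -0.64 and -0.94 (-0.85 ± 0.19, adjusted p = 0.483). Mylip, which degrades the LDL receptor, was at 0.08 and 0.06 and then at -0.71 and -0.42 (-0.64 ± 0.17, adjusted p = 0.496). In these 3 genes the day 2 libraries were near normal and near each other, unlike in the interferon genes, and both day 4 libraries were below them. The fourth, the desaturase gene Scd1 (0.85 and 0.17, then 0.09 and -0.68), had separated groups and a wider gap within each day. Cholesterol synthesis genes leaned the other way, with 19 of 24 above 0, 8 separated above (33.3%), 1 at an unadjusted p under 0.05 and a median of 0.25. That 1 gene was Idi1, an isomerase of the pathway (1.17 and 0.92, then 1.51 and 1.38; 0.40 ± 0.14, adjusted p = 0.723).

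Genes of the absorptive colonocyte were higher on day 4 by small amounts. Of 32 genes, 28 were above 0 (54.5% of all genes were), 11 were separated above (34.4%), 6 had an unadjusted p under 0.05 and 0 passed limma over all genes, with a median of 0.16. The water channel gene Aqp4 was at 0.68 and 1.02 on day 2 and 1.90 and 1.73 on day 4 (0.97 ± 0.22, limma adjusted p = 0.483). The magnesium channel gene Trpm6 was at -1.46 and -1.12 and then at -0.71 and -0.46, closer to normal on day 4 (0.70 ± 0.20, adjusted p = 0.567). Slc26a3, the chloride and bicarbonate exchanger of the colon surface, was at 0.33 and 0.36 and then at 0.82 and 0.99 (0.56 ± 0.18), and the carbonic anhydrase gene Car1 at 0.32 and 0.60 and then at 1.29 and 1.21 (0.80 ± 0.29). Both were separated above, and the water channel gene Aqp8 was separated the other way (1.09 and 1.11, then 0.82 and 1.06; -0.16 ± 0.26). Of 15 goblet cell genes, 9 were above 0, with a median of 0.06. The lectin gene Zg16 was separated above (0.15 and 0.13, then 0.58 and 0.18; 0.24 ± 0.21), and the trefoil factor gene Tff3 overlapped (-0.20 and -0.10, then -0.03 and -0.32).

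Genes of cell division differed between libraries of a day, and 34 of 36 were higher in replicate 2 than in replicate 1 on day 2 and again on day 4. Between the days, 34 were above 0 with a median of 0.29, but 5 were separated (13.9%, below the 20.2% of all genes) and 0 had an unadjusted p under 0.05. The median value was -0.38 and 0.11 on day 2 and -0.24 and 0.45 on day 4, and the median difference ran from -0.05 to 0.59 with 1 NC-miR library left out. Among crypt genes, the stem cell marker Lgr5 was at the floor in 1 day 4 library and at 0.91 in the other, and the list's median was 0.05.

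**Figure D3:**
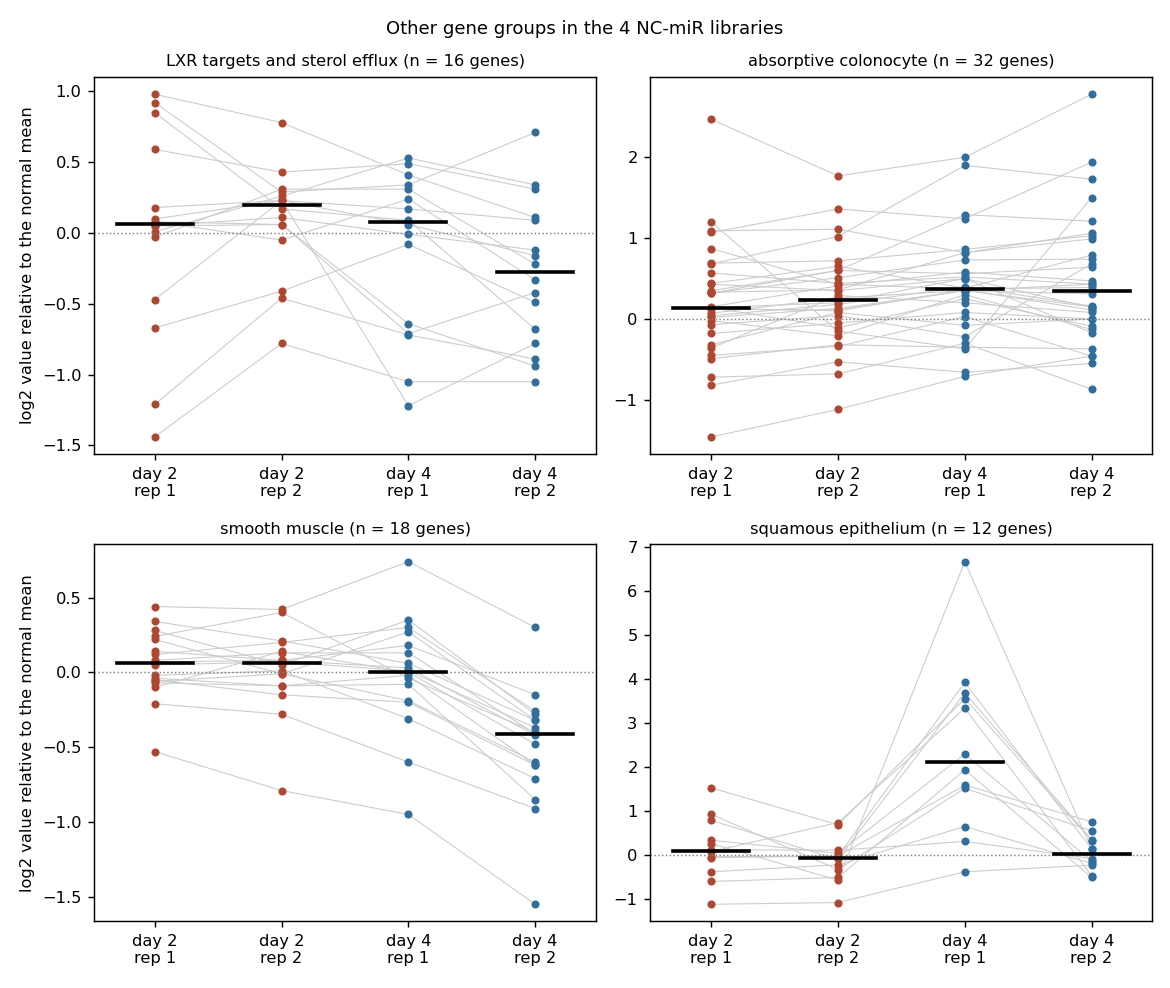
Log2 value relative to the normal mean (vertical axes) of LXR target genes, absorptive colonocyte genes, smooth muscle genes and squamous epithelium genes in the 4 NC-miR libraries (horizontal axes), with points for genes, grey lines joining a gene and black bars at medians. Smooth muscle genes are low in day 4 replicate 2 (median -0.42) and squamous genes are high in day 4 replicate 1 (median 2.11), while the other NC-miR libraries lie near 0 for both.

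Stress, clock and hormone genes gave smaller or mixed differences. Of 23 unfolded protein response genes, which serve folding in the endoplasmic reticulum, 20 were above 0 and 15 were separated above (65.2%), with a median of 0.18 and 2 at an unadjusted p under 0.05. These were the chaperone gene Hspa5 (0.01 and -0.29, then 0.23 and 0.21; 0.36 ± 0.15) and Hyou1 (0.39 ± 0.15). Among cytosolic heat shock genes, Hspa1b (0.57 and -0.21, then -0.55 and -1.02) was lower and the cochaperone gene Chordc1 (-0.01 and -0.07, then 0.42 and 0.38) higher, and the list's median was 0.02. Glucocorticoid response genes were below 0 in 14 of 15 cases, with a median of -0.39 and 4 separated below. They included Pdk4, which limits glucose oxidation (0.84 and -0.25, then -0.77 and -1.43; -1.40 ± 0.36, limma adjusted p = 0.483), and the cell cycle inhibitor gene Cdkn1a (-0.52 ± 0.16), while Sgk1, a kinase of sodium transport, was higher (0.63 ± 0.22). The glucocorticoid list also held Lcn2, described above, which had the lowest difference of the list (-2.50). It is not separate from the other lists, since Per1 is also in the clock list. Clock genes differed little between the days (17 genes, median -0.13). Per2 was the 1 clock gene at an unadjusted p under 0.05 (1.05 and 1.15, then 1.68 and 1.51; 0.50 ± 0.20). Per1 (1.02 and 1.65, then 1.25 and 1.03) was above normal on both days. Dbp (4.58 and 4.30, then 4.05 and 4.38) and Nr1d1 (4.05, 3.33, 3.76 and 3.58) stayed far above normal and Arntl (-2.12, -2.16, -1.87 and -2.52) far below on both days, and the groups of Per1, Dbp, Nr1d1 and Arntl overlapped.

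**Figure D4:**
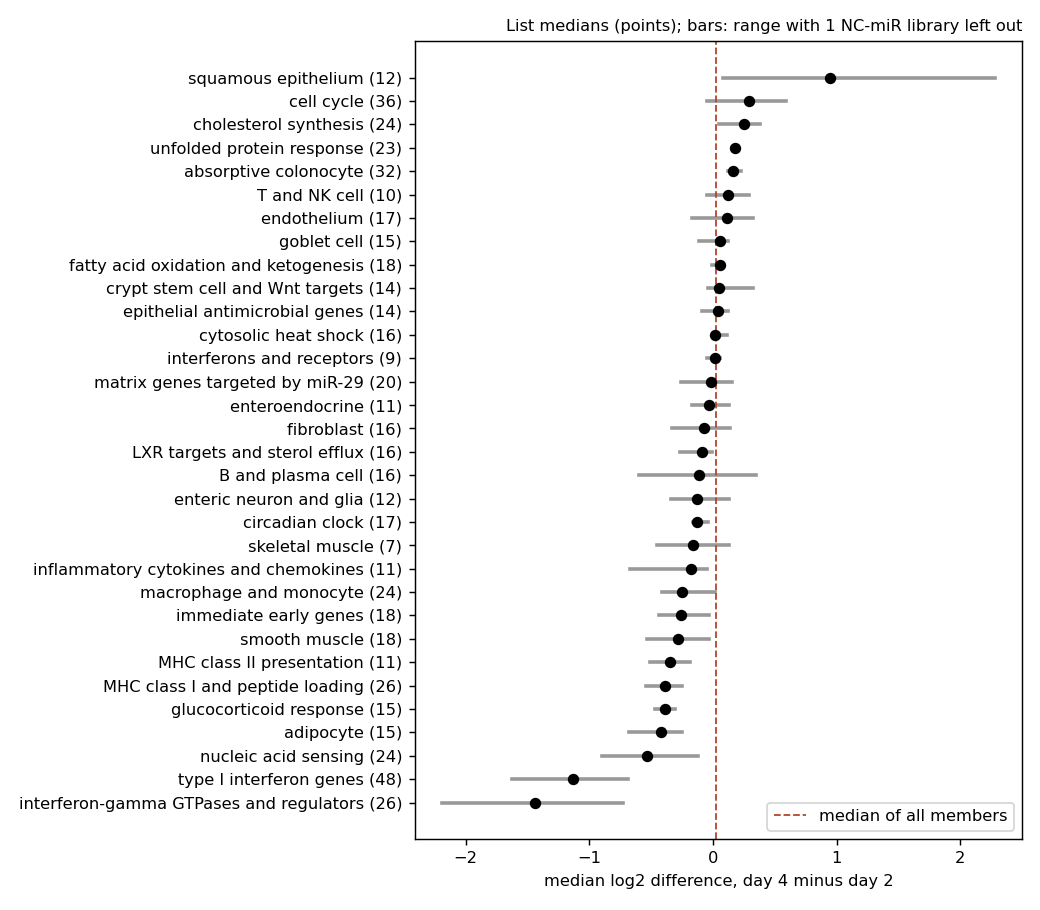
Median log2 difference, day 4 minus day 2 (horizontal axis), of each gene list with 7 or more genes compared (vertical axis, number of genes in brackets). Bars give the range of that median with each NC-miR library left out in turn, and the dashed line is the median of all 12668 genes (0.02). The interferon-gamma (-1.44) and type I interferon (-1.13) lists lie furthest below and the squamous epithelium list (0.95) furthest above, with a wide bar.

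The genes higher on day 4 with the smallest p belonged to no single list. Ceacam2 (chromosome 7, 25516042 to 25540004), a cell adhesion molecule, was at -0.79 and -1.05 on day 2 and at 0.17 and 0.11 on day 4 (2.08-fold higher, 1.06 ± 0.17, limma adjusted p = 0.344). Pop1, a protein of the RNase P complex, was at -0.92 and -0.67 and then at -0.11 and 0.10 (0.79 ± 0.15, adjusted p = 0.39). In both genes day 2 was below normal and day 4 was back near it. Tfrc, the transferrin receptor (-0.32 and -0.47, then 0.18 and 0.36), and Ncbp1, of the nuclear cap-binding complex (-0.53 and -0.49, then -0.03 and 0.02), followed the same order. Nkain4 (-0.49 and -1.24, then 0.27 and 0.16) did so with a wide gap between the day 2 libraries. Others were above normal on day 4: the synaptic scaffold gene Homer1 (-0.07 and 0.14, then 0.70 and 0.72), Mgat4c (0.66 and 0.71, then 1.38 and 1.30), Ddah1, which degrades an inhibitor of nitric oxide synthase (-0.39 and -0.09, then 0.42 and 0.77), and the transglutaminase gene Tgm3 (-0.44 and 0.12, then 0.85 and 0.65). The adjusted p of Tfrc, Ncbp1, Nkain4, Homer1, Mgat4c, Ddah1 and Tgm3 was 0.483 in each case. Larger but less certain differences were those of Upk3b (0.59 and -1.39, then 1.19 and 1.45; 1.72 ± 0.67), the sialyltransferase gene St8sia5 (0.37 and 0.65, then 2.00 and 2.25; 1.62 ± 0.44), Upk1b (1.29 ± 0.49), Gpm6a (1.28 ± 0.47), Sox18 (0.98 ± 0.36) and Tppp (0.96 ± 0.35). Upk3b, Upk1b and Sox18 were each lowest in 1 day 2 library and may have been at the floor there, so these differences may be understated.

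On the lower side, outside the lists, Apod, a lipid-binding apolipoprotein, was at 3.33 and 3.08 on day 2 and at 1.42 and 0.47 on day 4 (4.78-fold lower, -2.26 ± 0.38, limma adjusted p = 0.344). Isl1, a transcription factor of endocrine and neural cells, was at -0.03 and 0.18 and then at -0.93 and -0.72 (-0.90 ± 0.15, adjusted p = 0.344). Fbxw17 was at 0.94 and 0.71 and then at -0.25 and -0.02 (-0.96 ± 0.17, adjusted p = 0.383). The ribosomal protein gene Rpl30 (-0.50 and -0.05, then -1.66 and -1.61; -1.36 ± 0.23, adjusted p = 0.344) has processed pseudogene copies, so its reads are uncertain. Atp6v0c, a proton pump subunit with pseudogenes, rested on 1 library (-0.08 and -1.76, then -7.35 and -2.13), which may have been at the floor.

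**Figure D5:**
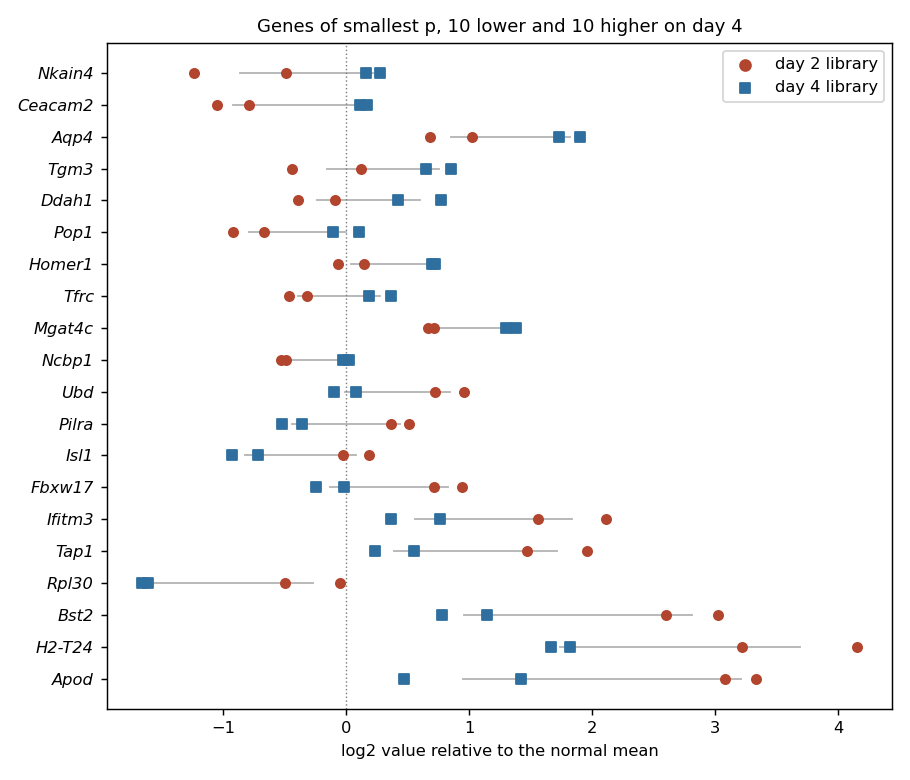
Log2 value relative to the normal mean (horizontal axis) of the 10 genes lower and the 10 higher on day 4 with the smallest limma p among genes above the floor in all 4 NC-miR libraries (vertical axis). Circles are day 2 libraries, squares are day 4 libraries, and a grey line joins the means of the 2 days. The days do not overlap in any of the 20 genes because the genes were chosen so, and Bst2, with the smallest p, runs from 3.02 and 2.60 to 1.14 and 0.78.

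The 2 features that passed the test were small RNA genes at the floor in 1 of the days. Mir29c (chromosome 1, 195037547 to 195037634) was not above the floor in either day 2 library, and stood at 180 and 730 times the floor in the day 4 libraries. It rose at least 362-fold (limma adjusted p = 0.00834), and it was above the floor in the 6 libraries of the other groups as well. Snord16a was the reverse. It stood at 288 and 2840 times the floor on day 2 and was not above it in either day 4 library, so that it fell at least 904-fold (limma adjusted p = 0.0357). Libraries at the floor hardly vary, which can make such p-values too small. With 1 library of any group left out, the adjusted p of Mir29c reached 0.0639 and that of Snord16a reached 0.28.

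Both features are short (88 and 91 bases as annotated for the comparison) and both overlap other genes. Mir29c lies within an exon of the noncoding gene A330023F24Rik on the same strand and opposite an exon of Cd46 in GENCODE M21. The rule by which reads were assigned to overlapping features is not given in the sources used here. Cd46 itself was at the floor in 2 of the 4 NC-miR libraries. Snord16a, a small nucleolar RNA that guides modification of ribosomal RNA, lies within Rpl4 on the same strand. Rpl4 was at 0.01, -0.06, -0.19 and -0.06, with a difference of -0.10 ± 0.17 (limma adjusted p = 0.946). The Snord16a sequence is printed as that of the gene behind the larger of the calls, from GENCODE M21 transcripts. Its 99 bases are not the same interval as the RefSeq feature of 91 bases (chromosome 9, 64175432 to 64175522). The other sequences are those of miR-29, shown because all members share the seed (bases 2 to 8, in capitals), from RefSeq on GRCm38.p6.
Snord16a, chr9:64175423-64175521, plus strand: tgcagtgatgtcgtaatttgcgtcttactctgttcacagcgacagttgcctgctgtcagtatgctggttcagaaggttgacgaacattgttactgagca
miR-29a-3p: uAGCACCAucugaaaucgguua
miR-29b-3p: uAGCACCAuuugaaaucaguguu
miR-29c-3p: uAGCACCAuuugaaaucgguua
The features Mir29a and Mir29b-1 were listed at the floor in all 4 NC-miR libraries, and mature miRNAs were not measured by this library type. Among 20 extracellular matrix genes that miR-29 is known to target, 10 were above 0 and 10 below, and the median difference was -0.02.

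Some other small RNA features were also at the floor in both libraries of 1 day, without passing the test. Of 28 small RNA features among the genes compared, 13 were above the floor in all 4 libraries, 6 were not above it in either day 4 library and 3 in neither day 2 library. Features at the floor throughout 1 day were compared only because both libraries of the other day were above it, which fixed their direction. Those at the floor on day 4 included Rnu11 and Rnu12, RNAs of the minor spliceosome (at least 283-fold and 45.9-fold lower), and the snoRNAs Snora5c (at least 131-fold) and Snora64 (at least 99.6-fold). Those at the floor on day 2 were Mir29c, Mir1892 (at least 539-fold higher) and Mir22 (at least 21.2-fold higher). The values of Rnu11 on day 2 were 73.7 and 1090 times the floor, so libraries of 1 day differed by more than 10-fold. Rnu11 and Rnu12 were also at the floor in both normal and both miR-29a libraries. Mir29c and Snord16a, in contrast, were above it in every library of the other groups.

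Markers of other tissues differed between libraries of the same day, and their part in the differences above was not tested. Of 12 squamous epithelium genes compared, 11 were higher in day 4 replicate 1 than in day 4 replicate 2. Their median was 0.09 and -0.07 on day 2, and 2.11 and 0.02 on day 4. Krt14, a keratin of basal squamous cells, was at 6.67 in day 4 replicate 1 and at 0.12 in replicate 2, Krt5 was above the floor in day 4 replicate 1 alone, and Trp63 and Dsg3 were at the floor in all 4 libraries. Spink5 (-0.05 and -0.03, then 1.58 and 0.75) and Krt15 (-1.13 and -1.09, then -0.39 and -0.24) were separated. Lgals7 was 15.3 and 1.13 times the floor on day 4 and at the floor on day 2. Spink5 was at the floor in 1 day 2 library. Both Spink5 and Lgals7 were therefore compared through day 4 alone, which favoured a higher value on day 4. Of the 9 squamous genes above the floor in all 4 NC-miR libraries, 2 were separated above. Without the squamous list genes the counts at an unadjusted p under 0.05 were 533 lower and 302 higher. Smooth muscle genes were low in day 4 replicate 2. All 18 were lower there than in day 4 replicate 1, with medians of 0.06 and 0.06 on day 2 and 0.01 and -0.42 on day 4, as for Myh11 (0.34 and 0.21, then 0.06 and -0.32) and Lmod1 (0.24 and 0.40, then -0.04 and -0.40). Fibroblast genes followed (-0.07 and -0.07, then 0.11 and -0.41). Adipocyte genes had a median of -0.42 with 7 of 15 separated below, from 0.98 and 0.69 on day 2 to 0.59 and 0.26 on day 4, with Plin4 (1.11 and 0.64, then 0.09 and -0.50) furthest apart. The adipocyte markers Adipoq, Plin1 and Cfd lay above the normal mean in all 4 libraries, but the 2 normal libraries lay 0.77, 0.47 and 0.80 to either side of that mean, and Cfd in replicate 2 of both days (0.62 and 0.30) was below the higher normal library. B and plasma cell genes were below normal in all 4, with medians of -1.87 and -1.0 and then -1.54 and -1.40, and the B cell genes Ms4a1, Cd79a and Cr2 were each lowest in day 2 replicate 1. The medians of 17 endothelial genes (0.11) and 10 T and natural killer cell genes (0.12) changed sign with 1 NC-miR library left out. Their fixed markers Pecam1 (-0.14 and 0.29, then 0.07 and -0.23) and Cd3g (0.25 and 0.23, then 0.45 and -0.57) had overlapping groups and differences below 0, against the list medians. The haemoglobin gene Hba-a1, a sign of blood in the tissue, was at -1.92 and -1.66 and then at -4.43 and -0.86. With 43 of its 48 genes separated, the median of the type I list could not change sign with 1 NC-miR library left out. Those fits therefore do not test the part of these tissues.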

How the data were processed

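RNA from the colorectum of 10 samples in 5 groups of 2 was extracted with miRNeasy and made into TruSeq stranded mRNA libraries, per the labels' protocols. The submitters' processing notes name TopHat2 2.0.13, Bowtie2 2.2.3, SAMtools 0.1.19, Cuffnorm 2.2.1 and mm10, with settings not given in the sources used here. Despite its FPKM heading per the file headers, the column the authors deposited holds log2 values relative to a per-gene baseline, with a floor for undetected features. How the floor, the log and the baseline were made is not given in the sources used here. On base 2, 98.6% of 6286 values lay on a 6-digit grid (within 0.1 of a step), against 19.6% on base e and 21.6% on base 10. A feature was taken as at the floor where 2 or more libraries shared its lowest value (within 2e-05). A feature lowest in 1 library may be at the floor there unseen, which holds for 165 of the genes compared in 1 NC-miR library. Values are relative, so levels were not compared between genes, and no counts were used here.

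limma 3.58.1 in R 4.3.3 was fitted with 5 group means to the 10 libraries over the 13051 features detected above the floor in the 2 libraries of at least 1 group (5 residual degrees of freedom, median SE 0.18), with Benjamini-Hochberg adjustment over all of them. The steps were tested on simulated data. The genes compared, and the 36 lists of 768 genes, were chosen with earlier results of these data known, and the list results are descriptions with no test of their own. Genes named were those called, the 10 of smallest p and the 10 of largest difference in each direction (above the floor in all 4 NC-miR libraries, groups not overlapping, unadjusted p under 0.05 for the latter), up to 4 of smallest p per list described, and a fixed set with defining markers, some of which are not reported here. A few others are named as exceptions to a count, chosen after their values were seen. Alternatives left out each library, the floor filter or the other groups, centred the libraries, or added a replicate block. Folds against a group at the floor are bounds set by the floor of each library.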

Additional observations from a re-analysis of the deposited data

How the results depend on the processing

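With 2 libraries per group, unknown depth and a floor of unknown height, differences in low features were not measurable, and a gene that missed the threshold was not shown to be unchanged. limma called 2 features, against 0 among genes above the floor in all 4 NC-miR libraries, 1 with no filter on the floor and 0 to 90 with 1 library left out (90 when day 2 replicate 2 was left out, 0 when a miR-29b library was). Genes at an unadjusted p under 0.05 ranged from 334 to 683 lower and from 187 to 480 higher with 1 library left out. Genes with groups that did not overlap numbered 7932 to 8977 with 1 NC-miR library left out, because fewer libraries separate more easily. The replicate numbers are not said to pair the libraries. Across 12263 genes, the deviations of same-numbered NC-miR libraries (2 pairs) from their group means correlated at -0.0555. A replicate block on the 4 NC-miR libraries called 1 feature, with 466 lower and 159 higher at an unadjusted p under 0.05, and a replicate block on all 10 libraries called 2. Readings of the floor from the 6-digit grid and counts without squamous genes, both chosen after seeing the data, called 2 features each. Apart from the construction of these alternatives, the cause of each change was not tested.

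With 1 library left out, list medians kept their sign but moved for MHC class I (-0.54 to -0.25), MHC class II (-0.51 to -0.19), nucleic acid sensing (-0.90 to -0.12), LXR targets (-0.27 to -0.01), immediate early genes (-0.44 to -0.03), the clock (-0.16 to -0.04), cholesterol synthesis (0.05 to 0.38), inflammatory cytokines (-0.67 to -0.05), the unfolded protein response (0.15 to 0.19), heat shock (0.02 to 0.11), absorptive colonocytes (0.12 to 0.23), squamous epithelium (0.08 to 2.28), smooth muscle (-0.53 to -0.03), adipocytes (-0.68 to -0.25), neutrophils (-1.43 to -0.00) and mast cells and eosinophils (-0.69 to -0.16). They spanned 0 for interferons and receptors (-0.05 to 0.06, and -0.01 with libraries centred on their medians), fatty acid oxidation (-0.01 to 0.09), antimicrobial genes (-0.09 to 0.12), crypt stem cells (-0.04 to 0.32), goblet cells (-0.11 to 0.12), skeletal muscle (-0.45 to 0.13), matrix genes (-0.26 to 0.15), B and plasma cells (-0.60 to 0.35), macrophages (-0.41 to 0.02), cell cycle (-0.05 to 0.59), endothelium (-0.17 to 0.32), T and natural killer cells (-0.05 to 0.29), fibroblasts (-0.33 to 0.14), neurons and glia (-0.34 to 0.13), enteroendocrine cells (-0.17 to 0.13) and erythroid cells (-1.76 to 0.58).

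Single genes whose difference changed sign with 1 library left out were Arntl (-0.38 to 0.26), Nr1d1 (-0.38 to 0.34), Per1 (-0.51 to 0.12), Ms4a1 (-0.63 to 0.35), Cd79a (-0.96 to 0.62), Cr2 (-0.88 to 0.65), Cd3g (-0.81 to 0.21), Csf1r (-0.32 to 0.24), Emr1 (-0.31 to 0.00), Pecam1 (-0.37 to 0.06), Cfd (-0.69 to 0.10), Plin1 (-0.36 to 0.43), Epcam (-0.04 to 0.03), Krt20 (-0.24 to 0.12), Tff3 (-0.17 to 0.12), Lgr5 (-0.13 to 0.89), Hba-a1 (-2.64 to 0.93), S100a8 (-3.42 to 0.21), Oas2 (-1.85 to 0.07), Irf8 (-0.34 to 0.08) and Erap1 (-0.04 to 0.06, and -0.01 with libraries centred on their medians).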

Other observations

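Genes outside the lists with a like course were found after their values were seen. Haptoglobin (Hp), an acute phase protein that binds free haemoglobin, was at 5.10 and 3.59 on day 2 and at 2.47 and 2.14 on day 4 (-2.04 ± 0.51, limma adjusted p = 0.483). The protease inhibitor Serpina3n (3.56 and 1.61, then 0.73 and 0.51) and the chemoattractant receptor Ccrl2 (2.50 and 1.02, then 0.33 and -0.30) followed the same order. So did Gbp1 (2.53 and 1.69, then 1.20 and 0.64), Ube2l6, which joins Isg15 to proteins (2.72 and 1.82, then 1.34 and 0.93), and Cd274, the checkpoint ligand PD-L1 (2.22 and 0.89, then 0.55 and -0.39). In each of these 6 genes both day 4 libraries lay below both day 2 libraries, replicate 1 was above replicate 2 on both days, and none passed limma over all genes.

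Genes known from the mesothelium, the lining of the abdominal cavity, were among the largest differences in the other direction. Upk3b, Upk1b, Gpm6a and Nkain4 were each lowest in day 2 replicate 2 and higher in both day 4 libraries than in both day 2 libraries. Msln (0.63 and -1.28, then 0.47 and 1.78) was also lowest there, with overlapping groups. Lrrn4 was not above the floor in either day 2 library and was at least 2.06-fold higher on day 4. Its direction was fixed, since it was compared through day 4 alone. These genes were grouped after their values were seen, and the amount of serosa in each sample was not measured.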
